A study of Mus musculus with 8 samples.

Results

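The genes described here encode enzymes and a transporter that handle arginine, the amino acid from which cells make nitric oxide, urea, ornithine and polyamines. They are 10 genes, Slc7a2, Nos2, Gch1, Ass1, Asl, Arg1, Arg2, Odc1, Srm and Sat1, taken by symbol from a table of 21899 genes, and each symbol matched a single row. The list was selected on results of the same comparison, the read counts of EA against control, so the levels and fold changes of its members are descriptions and carry no test of their own. The poly(A) RNA sequenced came from mesenchymal stem cells of mouse femoral marrow, stromal progenitors of bone, fat and cartilage. The EA group had 4 libraries of cells given 10 µM ellagic acid (EA), a plant polyphenol, for 48 h, and the control group had 4 libraries of cells given the solvent DMSO for the same 48 h. No genotype, strain, age or passage is given for either group. Whether the 4 libraries of a group are separate animals, separate cultures or technical repeats is not labelled, and p-values therefore reflect library-to-library spread alone.

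Cationic amino acid transporters bring arginine into the cell. Nitric oxide synthases turn it into nitric oxide and citrulline with tetrahydrobiopterin as cofactor, and argininosuccinate synthase and lyase turn citrulline back into arginine. Arginases split arginine into urea and ornithine, and ornithine decarboxylase starts polyamine synthesis from ornithine. Inducible nitric oxide synthase and arginase 1 are best known from macrophages, where inflammatory signals and interleukin 4 favour them in opposite ways, but stromal cells also make inducible nitric oxide synthase when stimulated.

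Total counts were 14112519 to 17390200 reads per library in EA and 14654286 to 16637984 in control. Of 15 mesenchymal stromal markers 14 were measured well enough to be tested, and the collagen gene Col1a1 alone had 412433 reads in EA and 394937 in control, whereas the stem cell marker Thy1 had only 7 reads in EA and 12 in control. Fold changes below are EA over control after TMM scaling, which gives each library a single scale factor on the assumption that most genes do not change. CPM values, which express reads relative to library size, use the same factors. A gene was called higher or lower at an adjusted p under 0.05 over 11777 tested genes (edgeR, quasi-likelihood F test, Benjamini-Hochberg). With library totals in place of TMM the median fold change over all tested genes moved by −0.36 on the log2 scale, and the split of calls changed from 3893 higher and 4027 lower to 1940 higher and 7196 lower.

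Nos2 was nearly lost with EA, and Sat1 and Slc7a2 were lower. Odc1 was slightly higher with TMM scaling but slightly lower with library totals. Of the 10 genes 8 had enough reads to be tested, and Arg1 and Arg2 did not. Of the 8 tested genes 3 were called lower and 1 higher, where 34.2% of all tested genes were called lower, 33.1% higher and 67.2% either way. With a log2 fold change of at least 1 in size as well, Nos2 alone remained, where 17.7% of all tested genes passed and 8.68% passed as lower. Because the members were assembled with these values known, nothing is read from that count. Gch1, Ass1, Asl and Srm were tested and not called. The 4 EA libraries lay below the 4 control libraries without overlap for Nos2, Slc7a2, Sat1 and the untested Arg2, while the groups overlapped for the other 6 genes, and over all tested genes 60.6% had groups without overlap and 30.6% had all EA libraries below all control libraries.

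Per length, Nos2 stood lower in the order of the genes in EA than in control, Srm and Sat1 changed places without overlap in either group, and the scarce Arg1 and Arg2 also changed places. The length used was the one deposited for each gene, 4439 bases for Nos2, and not the span of its coordinates on the chromosome. In fragments per kilobase of this length, scaled to the library total (FPKM), Odc1 led in both groups. It was at 99.0 ± 6.68 FPKM in EA and 111.7 ± 9.22 FPKM in control (SD, n = 4 each, as are all means below). In EA it was followed by Srm at 30.7 FPKM, Sat1 at 22.8, Slc7a2 at 19.96, Asl at 4.80, Ass1 at 2.74 and Nos2 at 1.22 FPKM, none of which overlapped its neighbour in this order. In control Nos2 came second at 55.0 FPKM, with values that overlapped those of Sat1 at 49.3 FPKM, and then came Srm at 36.1 and Slc7a2 at 33.9 FPKM, which overlapped each other, Asl at 5.86 and Ass1 at 3.87 FPKM. Arg1, Gch1 and Arg2 stood last in both groups, at mean levels of 0.0700 to 0.216 FPKM in EA and 0.174 to 0.337 FPKM in control, and neighbours among these 3 overlapped. Nos2 held 0.667 ± 0.144% of the summed FPKM of the 10 genes in EA and 18.6 ± 1.87% in control, while the share of Odc1 was 54.5 ± 1.147% in EA and 37.6 ± 1.83% in control.

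**Figure D1:**
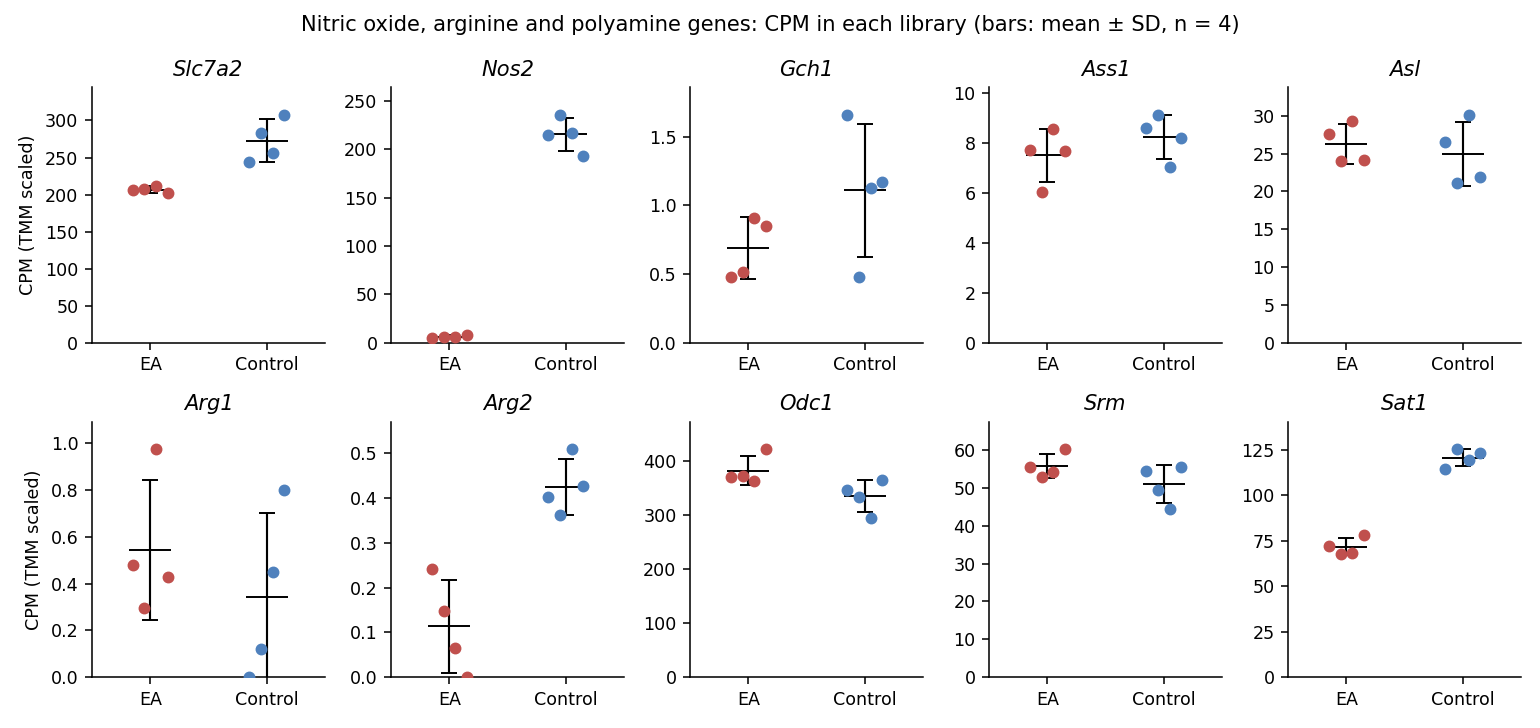
CPM of each of the 10 genes (y axis, linear from 0, a range of its own in each panel) in the 4 EA and the 4 control libraries (points), with mean and SD as bars, cut off at 0. Nos2 had 4.58 to 8.46 CPM in EA against 193 to 236 CPM in control, and Sat1, Slc7a2 and Arg2 also lay apart, while the other panels overlap.

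Nos2 encodes inducible nitric oxide synthase, which makes large amounts of nitric oxide once it is transcribed (ENSMUSG00000020826, chromosome 11, 78811613 to 78851080, plus strand, build GRCm39). It had 4.58, 5.74, 5.78 and 8.46 CPM in EA libraries 1 to 4, against 215, 236, 217 and 193 CPM in control libraries 1 to 4. All EA libraries were far below all control libraries, and the relative spread was wider in EA, with a coefficient of variation of 26.8% against 8.08% in control. The means were 6.14 ± 1.65 CPM in EA and 215 ± 17.4 CPM in control, a log2 fold change of −5.12 ± 0.12 (SE), or 34.9-fold lower, the third lowest fitted value among the 11777 tested genes. Every EA library still held between 57 and 119 reads of the gene, so the transcript was still detected in each. In bulk RNA, fewer cells that express a gene and less RNA per cell cannot be told apart.

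Nos2 is also a macrophage gene, so markers of that cell type were read beside it. The summed level of 12 macrophage and monocyte markers, scaled to library totals, was 52.9 to 56.6 CPM in EA and 68.2 to 85.4 CPM in control. Most of this sum came from Lyz2, which was called higher in EA, and from Cd14, a co-receptor for bacterial lipopolysaccharide that had 533 reads in EA and 2391 in control and was called lower. Of the others, Cd68 had 58 reads in EA and 97 in control and was not called, and Fcer1g had 29 in EA and 56 in control and was untested. The remaining 8 had at most 23 reads in a group. Adgre1 had 2 reads in EA and 5 in control, Itgam 0 and 1, Tyrobp 0 and 1, and Csf1r 22 and 23, beside 343 reads of Nos2 in EA and 15154 in control. The leukocyte marker Ptprc had 17 reads in EA and 16 in control. The part of the marker difference in the Nos2 values was not tested.

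The 2 other nitric oxide synthases were scarce. Nos1, the neuronal form, had 3.05, 2.35, 2.73 and 1.14 CPM in EA, against 1.146, 0.962, 0.791 and 0.799 CPM in control, with EA library 4 inside the control range. It was called higher, at a log2 fold change of 1.32 ± 0.31 (edgeR adjusted p = 0.000941), but was not called on log2(FPKM + 1) values. Nos3, the endothelial form, had 4 reads in EA and 10 in control. Of 6 tested genes that partner with these enzymes or handle their natural inhibitor, asymmetric dimethylarginine, Nos1 included, 3 rose and 3 fell. Their median was 0.31 on the log2 scale, beside −0.02 over all tested genes. Cav1, the caveolar coat protein that binds and restrains the endothelial synthase, rose 2.24-fold to 558 ± 12.2 CPM in EA, against 249.1 ± 4.43 CPM in control (edgeR adjusted p = 2.28e-14). Nosip, a nitric oxide synthase binding protein, was at 14.6 ± 1.87 CPM in EA and 19.99 ± 1.52 CPM in control, a log2 fold change of −0.46 ± 0.11. Of the pair of dimethylarginine hydrolase genes, named after their values were seen, Ddah1 rose by a log2 fold change of 0.85 ± 0.09 and Ddah2 fell by 0.31 ± 0.11 on the log2 scale. Ddah2 was not called without EA library 3, EA library 4 or control library 1.

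The genes of the nitric oxide receptor, soluble guanylate cyclase, were hardly detected in either group. Gucy1a1 had 4 reads in EA and 6 in control, Gucy1b1 had 3 in EA and 2 in control, and Gucy1a2 had 0 in both, chosen for mention after their values were seen. Of the 5 tested genes downstream of or beside this receptor 3 rose and 1 fell, and the median of the list was 0.34. Prkg1, the cGMP-dependent protein kinase, rose 1.85-fold to 21.1 ± 2.12 CPM in EA, against 11.4 ± 1.38 CPM in control (edgeR adjusted p = 6.08e-07). Vasp, a substrate of that kinase, was among the risers at a log2 fold change of 0.34 ± 0.06 but reversed with library totals or FPKM values. Adh5, the enzyme that removes S-nitrosoglutathione, fell to 128 ± 6.64 CPM in EA, against 161 ± 7.98 CPM in control.

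Slc7a2 encodes the cationic amino acid transporter CAT2, which supplies arginine to inducible nitric oxide synthase in macrophages (ENSMUSG00000031596, chromosome 8, 41315433 to 41375345, plus strand). It had 206, 207, 212 and 202 CPM in EA libraries 1 to 4, against 243, 283, 257 and 308 CPM in control libraries 1 to 4. The EA values lay close together, with a coefficient of variation of 1.99% against 10.5% in control, and all were below the lowest control library. The log2 fold change was −0.40 ± 0.07, or 1.32-fold lower. The ratio of Nos2 to Slc7a2 FPKM within a library, which does not depend on library scaling, was 0.0457 to 0.0863 in EA and 1.29 to 1.82 in control.

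Of 7 other tested genes of cationic amino acid transport 2 rose and 3 fell, and the list median was −0.47. Slc7a1, the constitutive transporter CAT1, had 301, 299, 306 and 377 CPM in EA, against 509, 506, 443 and 584 CPM in control. It fell by 0.67 ± 0.09 on the log2 scale (edgeR adjusted p = 5.31e-06), with no overlap between the groups. Slc7a6, a light chain that exchanges cationic for neutral amino acids, rose 1.56-fold to 109 ± 5.19 CPM in EA, against 69.8 ± 3.62 CPM in control. Slc25a15, the mitochondrial ornithine carrier named after its values were seen, fell by 0.62 ± 0.13 on the log2 scale.

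Gch1 encodes GTP cyclohydrolase 1, the first and limiting step of tetrahydrobiopterin synthesis (ENSMUSG00000037580, chromosome 14, 47391352 to 47426870, minus strand). It was close to the limit of detection, with 6, 7, 14 and 12 reads in EA libraries 1 to 4, against 29, 8, 20 and 22 reads in control libraries 1 to 4. In reads, control library 2 lay inside the EA range. The log2 fold change of −0.67 ± 0.39 was not called, but it was called at −0.90 without control library 2, at −1.03 with library totals and at −0.57 on log2(FPKM + 0.1) values. As a ratio of summed reads after TMM scaling it was 0.628, with a counting interval of 0.416 to 0.933 (95%, exact, counting error only). With library totals this ratio was 0.488, with an interval of 0.324 to 0.725.

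The 250 bases before the start of transcription are shown for Gch1 as the entry to tetrahydrobiopterin synthesis, and for Sat1 and Odc1 because their ratio differed between the groups. RefSeq promoters of build GRCm38.p6, another build than that of the counts, were found for 4 of the 10 genes, these and Ass1. The sequences run 5′ to 3′ on the strand of the gene, at chr14:47189414-47189663 on the minus strand for Gch1, chrX:155216450-155216699 on the minus strand for Sat1 and chr12:17544623-17544872 on the plus strand for Odc1. Capitals mark matches to 6 motifs searched on both strands, the NF-kB consensus, the TATA box TATAAA, the E-box CACGTG, the AP-1 motif TGANTCA, the interferon gamma motif TTCNNNGAA and the antioxidant motif TGACNNNGC.
Gch1: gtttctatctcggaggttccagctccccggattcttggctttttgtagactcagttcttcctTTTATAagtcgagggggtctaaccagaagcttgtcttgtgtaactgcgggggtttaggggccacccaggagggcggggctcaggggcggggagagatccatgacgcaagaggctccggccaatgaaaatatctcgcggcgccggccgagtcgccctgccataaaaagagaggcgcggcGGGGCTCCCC
Sat1: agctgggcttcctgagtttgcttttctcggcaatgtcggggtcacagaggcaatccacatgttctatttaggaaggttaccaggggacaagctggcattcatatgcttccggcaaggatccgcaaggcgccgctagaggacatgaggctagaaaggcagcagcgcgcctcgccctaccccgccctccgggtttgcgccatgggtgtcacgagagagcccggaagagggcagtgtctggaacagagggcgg
Odc1: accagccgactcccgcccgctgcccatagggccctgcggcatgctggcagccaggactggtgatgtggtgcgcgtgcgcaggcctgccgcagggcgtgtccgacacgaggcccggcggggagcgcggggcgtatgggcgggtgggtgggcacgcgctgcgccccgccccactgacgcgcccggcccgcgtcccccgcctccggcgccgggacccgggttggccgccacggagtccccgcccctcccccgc
In Gch1 the capitals are a TATA box match on the opposite strand, which starts 188 bases before the start site, and an NF-kB consensus match directly before it. Of 32851 promoters of the same length 3.90% held the NF-kB consensus and 12.4% held TATAAA. Sat1 and Odc1 held none of the 6 motifs in this window, and Ass1 held CACGTG, as did 6.02% of all promoters. The G and C content was 59.2% in Gch1, 59.6% in Sat1 and 80.0% in Odc1, with a median of 52.4% over all promoters.

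Of 5 other tested genes of tetrahydrobiopterin synthesis and recycling 4 fell and 0 rose. The list median was −0.61, and Pcbd1 and Pcbd2, which recycle the cofactor, had too few reads to be tested. Gchfr, the feedback protein that regulates GTP cyclohydrolase, had 4.66, 3.02, 5.72 and 4.77 CPM in EA, against 14.8, 10.2, 15.5 and 11.1 CPM in control, and was 2.83-fold lower (edgeR adjusted p = 5.99e-07). The groups did not overlap. The synthesis enzyme genes that fell were Pts at −0.61 ± 0.12 and Spr at −0.34 ± 0.09 (log2, named after their values were seen). The recycling enzyme gene Qdpr, at −0.15 ± 0.13, was not called.

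Ass1 and Asl, which rebuild arginine from citrulline, were not called. Ass1 (ENSMUSG00000076441, chromosome 2, 31360219 to 31410684, plus strand) had 7.71, 6.03, 8.58 and 7.68 CPM in EA libraries 1 to 4, against 8.60, 9.14, 7.06 and 8.20 CPM in control libraries 1 to 4. Asl (ENSMUSG00000025533, chromosome 5, 130040099 to 130058088, minus strand) had 27.6, 24.1, 29.4 and 24.1 CPM in EA, against 26.6, 21.2, 30.2 and 21.9 CPM in control. The values of the groups were interleaved for both genes, at log2 fold changes of −0.13 ± 0.14 for Ass1 and 0.08 ± 0.11 for Asl. With library totals both were called lower, at −0.50 and −0.29, and likewise on FPKM values. Ass1 was negative in all 19 alternatives and only its call depended on the scaling, whereas the direction of Asl reversed in 4 of them. The ratio of Nos2 to Ass1 FPKM within a library was 0.452 ± 0.129 in EA and 14.3 ± 1.70 in control, without overlap.

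The arginase genes were barely expressed. Arg1, the liver and macrophage enzyme (ENSMUSG00000019987, chromosome 10, 24791119 to 24803382, minus strand), had 6, 4, 15 and 6 reads in EA libraries 1 to 4, against 0, 2, 8 and 15 reads in control libraries 1 to 4. The groups overlapped, with 31 summed reads in EA and 25 in control. After TMM scaling the ratio of summed reads was 1.58, with an interval of 0.901 to 2.79 (95%, exact, counting error only). With library totals this ratio was 1.23, with an interval of 0.701 to 2.17. Arg2, the mitochondrial enzyme (ENSMUSG00000021125, chromosome 12, 79177551 to 79203075, plus strand), had 3, 2, 1 and 0 reads in EA, against 7, 6, 9 and 8 reads in control. All EA libraries were lower, with 6 summed reads in EA and 30 in control. After TMM scaling their ratio was 0.254, with an interval of 0.0865 to 0.621 (95%, exact, counting error only). With library totals this ratio was 0.198, with an interval of 0.0673 to 0.483. With no filter on low counts Arg2 was tested and called lower, at a log2 fold change of −1.89. Arg2 overlaps Vti1b on the opposite strand by 285 bases, and since the strand setting of the counting is not given in the sources used here, reads of the pair cannot be told apart there. Vti1b had 2325 reads in EA and 2904 in control.

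Of 14 genes on other routes of urea, ornithine, proline, glutamine and creatine 9 were tested, and 6 rose and 2 fell. The list median was 0.57. The falling genes make proline from glutamate. Aldh18a1, which encodes pyrroline-5-carboxylate synthase, fell to 280 ± 22.3 CPM in EA, against 546 ± 32.2 CPM in control (log2 fold change −0.96 ± 0.06, edgeR adjusted p = 2.12e-11), and Pycr1, the last step, named after its values were seen, was 1.93-fold lower. Glul, glutamine synthetase, had 215, 204, 194 and 199 CPM in EA, against 27.2, 26.1, 26.9 and 26.3 CPM in control, and rose 7.61-fold (edgeR adjusted p = 4.19e-19). Oat, which links ornithine to pyrroline-5-carboxylate, rose 1.85-fold to 250 ± 5.90 CPM in EA, against 135 ± 11.1 CPM in control (named after its values were seen). Otc, Cps1, Nags, Prodh and Agmat were untested for low counts, with 0 to 22 reads each in EA and 0 to 50 in control.

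In the polyamine branch the synthesis genes Odc1 and Srm kept close to each other, and Sat1, which acetylates spermidine and spermine for breakdown and export, was lower. Sat1 (ENSMUSG00000025283, chromosome X, 153996128 to 153999445, minus strand) had 72.2, 67.9, 68.3 and 78.2 CPM in EA libraries 1 to 4, against 115, 125, 119 and 123 CPM in control libraries 1 to 4. The groups lay far apart relative to their spread, with a log2 fold change of −0.75 ± 0.06, or 1.68-fold lower. Odc1, ornithine decarboxylase, the limiting step of polyamine synthesis (ENSMUSG00000011179, chromosome 12, 17594795 to 17601506, plus strand), had 371, 373, 363 and 422 CPM in EA, against 347, 334, 296 and 365 CPM in control. EA library 3 fell just below control library 4, so the groups overlapped. The log2 fold change of 0.19 ± 0.07 was called higher but was no longer called without EA library 4 or control library 3 (0.14 each), and with library totals it was −0.17 and called lower. Srm, spermidine synthase (ENSMUSG00000006442, chromosome 4, 148675960 to 148679450, plus strand), had 55.4, 53.0, 54.3 and 60.2 CPM in EA, against 54.4, 49.5, 44.5 and 55.4 CPM in control. At 0.13 ± 0.08 it was not called, but it was called at 0.17 without control library 4, and with library totals it was −0.23 and called lower.

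Ratios within a library need no scaling between libraries. Odc1 over Sat1 was 4.19, 4.48, 4.33 and 4.40 in EA, against 2.47, 2.17, 2.02 and 2.41 in control, in FPKM. The groups did not overlap, and the mean ratio was 1.92 times as high in EA. Srm over Sat1 was 1.35 ± 0.0219 in EA and 0.734 ± 0.0822 in control, 1.84 times as high. Odc1 over Srm was 3.22 ± 0.0918 in EA and 3.10 ± 0.0722 in control, and here the libraries of the groups overlapped.

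**Figure D2:**
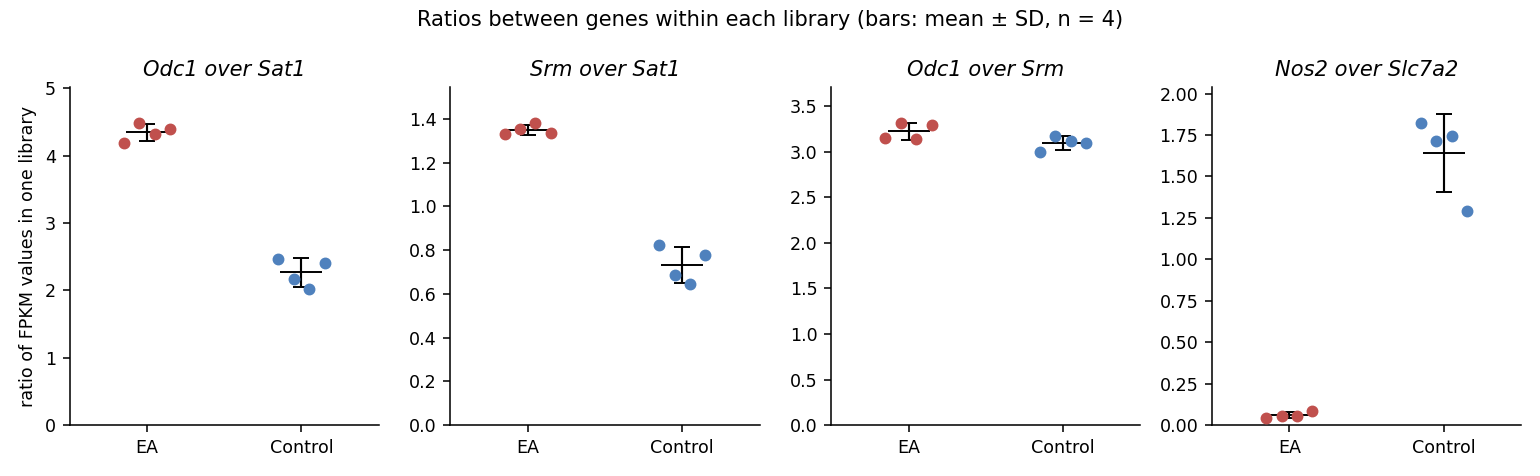
Ratios of FPKM values between pairs of genes within each library (y axis, linear from 0) for 4 EA and 4 control libraries (points), with mean and SD as bars. Odc1 over Sat1 and Srm over Sat1 are higher in every EA library, Odc1 over Srm overlaps between the groups, and Nos2 over Slc7a2 is 0.0457 to 0.0863 in EA against 1.29 to 1.82 in control.

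Of 13 other tested polyamine genes 5 rose and 3 fell, at a list median of 0.12. Azin1, the antizyme inhibitor that protects ornithine decarboxylase from degradation, had 344, 339, 351 and 344 CPM in EA, against 154, 166, 157 and 198 CPM in control. It rose 2.04-fold (edgeR adjusted p = 2.84e-11). The antizyme genes, which act in the opposite way and are named after their values were seen, were Oaz1 at 0.33 ± 0.06 and Oaz2 at 0.78 ± 0.06 on the log2 scale, both called higher, although Oaz1 reversed with library totals or FPKM values. Slc18b1, a vesicular polyamine transporter, fell by 0.61 ± 0.09 on the log2 scale. The decarboxylase gene Amd1, which supplies the aminopropyl donor and has a near-identical copy in Amd2, was at 0.12 ± 0.06, and the spermine oxidase gene Smox at 0.04 ± 0.07, and neither was called. The spermine synthase gene Sms was called lower, at −0.31, and the polyamine oxidase gene Paox higher, at 0.94. Paox was not called with library totals, on FPKM values, with no filter or at an adjusted p under 0.01.

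In methionine salvage and hypusination, the pathways that feed and use polyamines, 2 of 9 tested genes rose and 2 fell. The list median was 0.01. Mat2a, which makes S-adenosylmethionine, rose 2.07-fold to 574 ± 32.1 CPM in EA, against 278 ± 24.0 CPM in control. Mri1, an isomerase of the salvage route, fell by 1.07 ± 0.08 on the log2 scale (edgeR adjusted p = 1.11e-10). Eif5a, the protein that carries hypusine made from spermidine, was at 0.08 ± 0.06 and not called.

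Over all 8 lists of other pathway genes, 75 of the 93 genes found in the table were tested, and 29 rose and 28 fell. This was 38.7% higher and 37.3% lower, beside 33.1% and 34.2% of all tested genes. With library totals the counts were 18 higher and 40 lower. In the pathway annotation of the deposited table, arginine biosynthesis held 13 tested genes with 4 called higher and 5 lower, and arginine and proline metabolism held 34 with 9 higher and 13 lower. Those pathways include 5 and 6 of the 10 genes described here.

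**Figure D3:**
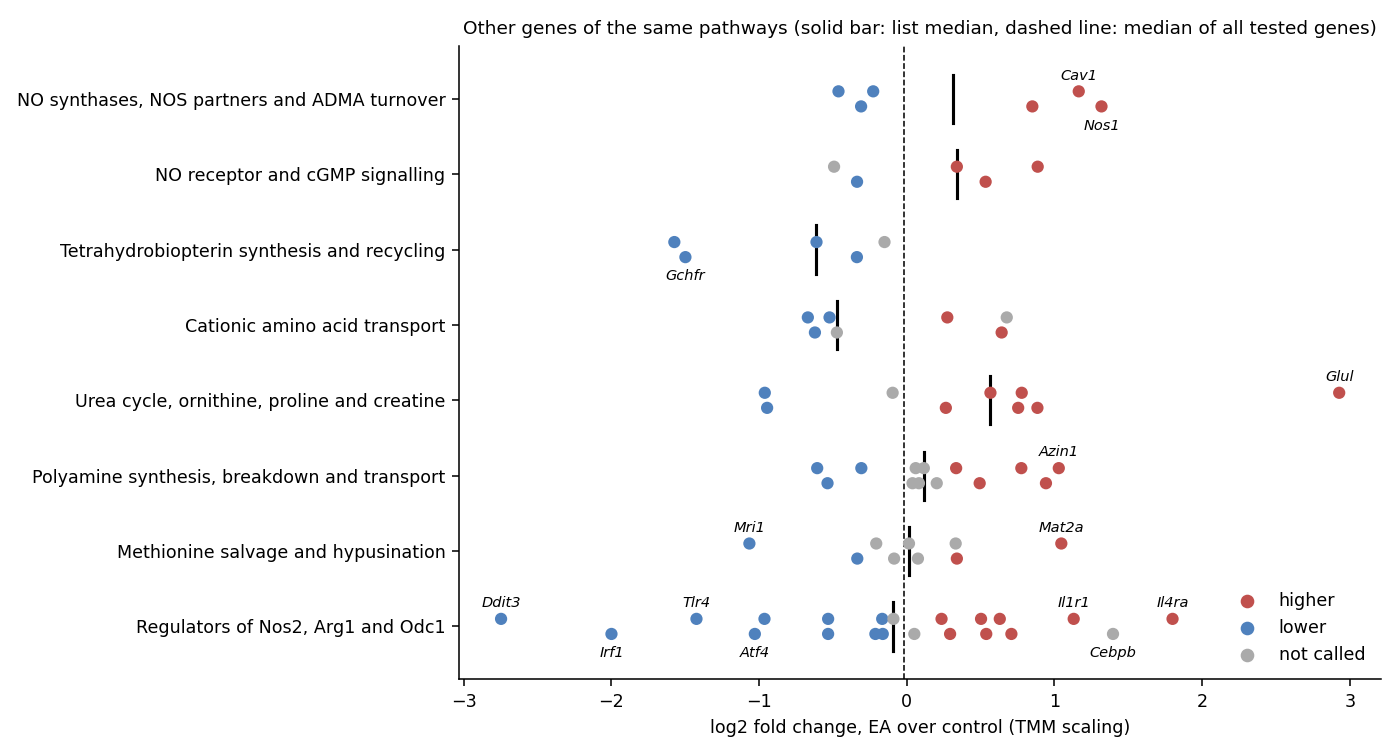
Log2 fold change, EA over control (x axis), of each of the 75 tested pathway genes in 8 lists (points, red called higher, blue called lower, grey not called, some of those past 1 in size named). The solid bar is the median of a list and the dashed line the median of all tested genes. Tetrahydrobiopterin genes lie to the left with a median of −0.61, and Glul stands alone at 2.93.

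Known regulators of Nos2, Arg1 and Odc1 went both ways, with 8 of 21 higher and 10 lower and a median of −0.09. Irf1, an interferon-induced factor required for Nos2 induction in mouse macrophages, had 12.4, 8.90, 8.06 and 13.9 CPM in EA, against 39.1, 48.9, 43.9 and 40.2 CPM in control. It fell without overlap to a mean of 10.8 CPM in EA, against 43.0 CPM in control (edgeR adjusted p = 1.47e-09). Tlr4, the lipopolysaccharide receptor, fell to 10.1 ± 1.38 CPM in EA, against 27.1 ± 1.68 CPM in control. The stress factors Atf4 and Ddit3 were also lower, at −1.03 ± 0.05 and −2.75 ± 0.08 on the log2 scale. In the other direction, Il1r1, the interleukin 1 receptor, rose 2.19-fold, and Il4ra, the interleukin 4 receptor chain through which Arg1 is induced in macrophages, rose 3.48-fold to 124 ± 7.03 CPM in EA, against 35.7 ± 3.83 CPM in control. Myc, an activator of Odc1 transcription named after its values were seen, was at 90.5 ± 13.4 CPM in EA and 176 ± 23.3 CPM in control, 1.95-fold lower, with no overlap.

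The genes nearest to Nos2 in pattern were sought among 10574 tested genes, by the root mean square difference between mean-centred log2 CPM over the 8 libraries. They were Cxcl3 at 0.47, Cxcl5 at 0.47, Chac1 at 0.50, Usp17la at 0.56 and Vnn3 at 0.60. Each was below all control libraries in every EA library, which follows from the choice by pattern. Cxcl3 was near the limit of detection in EA, at a mean of 0.054 CPM, against 3.43 CPM in control. Cxcl3 and Cxcl5 encode neutrophil-attracting chemokines, Chac1 a glutathione-degrading enzyme and Usp17la a deubiquitinase with near-identical copies, which leaves its own value uncertain. For Odc1 the nearest were Znhit6 at 0.042 and Srm at 0.044, followed by Cgref1 and Ybx3 at 0.047 and Cnbp at 0.048. Srm came second of 10574 candidates, but these values lie close together and the rank is a description only.

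Scaling decided the direction of the smaller differences. The log2 fold changes of Nos2, Sat1 and Slc7a2 were negative and called in all 19 alternatives, from −5.49 to −4.67 for Nos2, −1.11 to −0.72 for Sat1 and −0.76 to −0.33 for Slc7a2. With library totals all 8 tested genes were called lower and 0 higher, where 77.6% of all tested genes were called, 61.1% lower and 16.5% higher.

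**Figure D4:**
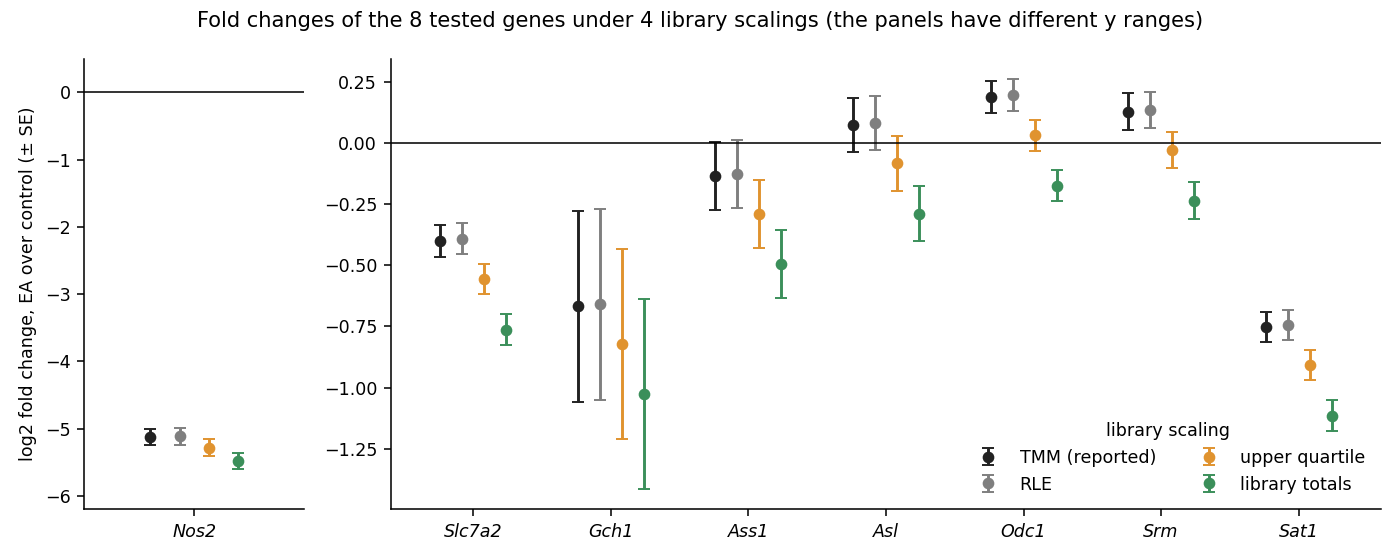
Log2 fold change, EA over control, with SE (y axis, different ranges in the panels) of the 8 tested genes under 4 library scalings. Nos2, Slc7a2 and Sat1 stay below 0 under each, while Asl, Odc1 and Srm are above 0 with TMM and RLE factors and below 0 with library totals.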

How the data were processed

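Read counts per gene in 8 libraries, 4 of EA and 4 of control, were used as deposited by the authors, whose processing notes name cutadapt 1.15, HISAT2 2.0.5 and build GRCm39. Counter, strand setting and annotation were not given in the sources used here. Per the file headers the authors also deposited FPKM values, which follow from each count, the Length column and the column total.

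The fit used edgeR 4.0.16 under R 4.3.3 (TMM factors, default filter by group, robust quasi-likelihood F test without covariates). The SE is the size of the log2 fold change divided by the square root of F. CPM uses TMM factors, 0.878 to 0.885 in EA and 1.13 to 1.14 in control, except for summed markers. Total counts of 14112519 to 17390200 limit precision, and intervals cover counting error only, since reads are not independent molecules.

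Members, lists, motifs and tests were chosen with earlier results of these data known. All 10 members are named. Of each list of pathway genes, up to 4 called genes per direction with a log2 fold change of at least 1 were named by p, otherwise the first called gene. Every other pathway gene named was chosen after its values were seen. The 5 nearest genes to the called members with the largest fall and rise needed a mean log2 CPM of at least 1. Pycr3 was not analysed here. Values of some pathway genes are not reported here, although the list counts include them. Libraries of a group did not agree within counting noise (chi-square per degree of freedom 2.79 to 16.7). Steps were tested on simulated data with changes planted in few genes, which cannot show whether TMM scaling suits the real data.

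Alternatives were RLE, upper-quartile and no factors, 2 other filters, DESeq2 1.42.0, limma 3.58.1 with voom, limma on log2(FPKM + 1) and log2(FPKM + 0.1), a threshold of 0.01, a replicate block and leaving out each library. Figures used matplotlib 3.10.9.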

Additional observations from a re-analysis of the deposited data

Results flagged for a closer look

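Of 80 groups of 4 libraries examined, 3 had a library that stood apart from the rest by Dixon's criterion, and chance flags about 1 in 20. Each group was a member, a pathway gene picked by the naming rule above or a ratio between members, in EA or in control. Slc7a2 over Odc1 in FPKM was 0.261 in control library 1, against 0.314 to 0.323 in the other control libraries. Adh5 had 149 CPM in control library 3, against 164 to 166 CPM in the other control libraries. Slc7a1 had 377 CPM in EA library 4, against 299 to 306 CPM in the other EA libraries, and without that library it was still called lower.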

How the results depend on the processing

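Calls for Nos2, Sat1 and Slc7a2 kept their direction and stayed past the threshold in all 19 alternatives, and that of Odc1 did not. The counts of members called lower, 3, became 8 with library totals, 7 on log2(FPKM + 1) and 8 on log2(FPKM + 0.1) values. It became 4 with no filter, where Arg2 was called at −1.89, and 4 without control library 2, where Gch1 was called. The count of members called higher, 1, became 0 with upper-quartile factors, library totals, both FPKM settings and an adjusted p under 0.01, and ranged from 0 to 2 when a library was left out. Over all genes, 1940 higher and 7196 lower were called with library totals, 1924 and 7170 on log2(FPKM + 1) and 1922 and 7179 on log2(FPKM + 0.1). Of the pathway genes, 29 higher and 28 lower became 18 and 40 with library totals, 16 and 39 on log2(FPKM + 1) and 17 and 40 on log2(FPKM + 0.1). Asl reversed to −0.083 with upper-quartile factors, −0.29 with library totals and −0.24 and −0.27 on FPKM values. Odc1 reversed to −0.17 in each of the last 3 settings. Srm reversed to −0.028, −0.23, −0.22 and −0.23 in the same 4 settings. Upper-quartile factors moved the median of all tested genes by −0.16. The FPKM settings, whose values are scaled to the library total, moved it by −0.26 and −0.35, beside −0.36 with library totals. Why these scalings differ from TMM was not tested. Same-numbered EA and control libraries deviated from their group means with correlations of −0.02 to 0.03 over 11777 genes. With 4 libraries per group these values cannot settle whether the numbers pair the samples, which is not labelled. With the replicate block 3 members were called lower and 1 higher, and 7794 genes in all. Arg1, Arg2 and Gch1 are limited by depth.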

Other observations

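Mtap, the phosphorylase that clears the methylthioadenosine released by spermidine and spermine synthesis, had 1 read in EA and 1 in control. Its neighbours on chromosome 4 were as low, with 0 reads in both groups for Cdkn2a and 1 read in EA and 0 in control for Cdkn2b. Between the nearest tested genes on either side, Klhl9 with 4370 reads in EA and 3772 in control and Caap1 with 297 in EA and 474 in control, the table holds 31 genes, interferon genes among them, with 39 reads in EA and 61 in control in all. Why these genes are low was not tested.

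Cebpb, a factor that acts on the Arg1 promoter in macrophages, had 49.9, 84.8, 105 and 151 CPM in EA, against 65.2, 42.3, 25.2 and 16.8 CPM in control. The highest control library lay above the lowest EA library, and a log2 fold change of 1.40 ± 0.52 was not called (edgeR adjusted p = 0.0516).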
